A study of Mus musculus with 12 samples.

Results

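Smooth muscle contractile genes were followed in mouse bone marrow mesenchymal stem cells (MSCs) under TGF-β1 and under supernatants of myeloid-derived suppressor cells (MDSCs). The 10 genes, Acta2, Actg2, Tagln, Cnn1, Cnn2, Tpm1, Tpm2, Myl9, Myh9 and Myh11, were chosen by name from a table of 55401 genes. All groups were MSCs of C57BL/6 mice bought from a supplier, and 3 libraries of poly(A) RNA were sequenced from each of 4 groups. The groups were untreated MSCs, MSCs with TGF-β1 at 5 ng/mL, MSCs with TGF-β1 in M-MDSC supernatant, and MSCs with TGF-β1 in G-MDSC supernatant. The MDSCs had been induced from bone marrow cells in culture and sorted into a monocytic (M-MDSC) and a granulocytic (G-MDSC) population before their medium was collected. The libraries held between 73977669 and 84565450 counts assigned to genes. Nothing in the labels says whether replicates were separate cultures, so p-values measure the spread between these libraries, which may be technical. The question asked of these genes was whether the return of Acta2 towards its untreated level with the supernatants extends to the rest of the contractile apparatus.

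Smooth muscle contracts when myosin heads pull on actin filaments. The filaments carry tropomyosin, calponin and transgelin along their length, and phosphorylation of the myosin regulatory light chain switches the motor on. Fibroblast-like cells that become myofibroblasts under TGF-β1 take up part of this equipment, and α-smooth muscle actin, the product of Acta2, is their best known marker. Many of these genes are controlled by serum response factor (SRF), which binds the CArG box with myocardin or myocardin-related coactivators. MCAT elements, bound by TEAD factors, are a further known class of regulatory site in smooth muscle genes.

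The promoters of Acta2, Cnn2 and Tpm1 are shown because these genes took different courses through the 4 groups, as described below. Each sequence is the 250 bases before the RefSeq start of the gene in GRCm38.p6, written 5′ to 3′ on the strand of the gene, with CArG boxes, CArG-like elements and MCAT motifs in capitals. Acta2 was read from the minus strand at chr19:34255374-34255623, Cnn2 from the plus strand at chr10:79988350-79988599 and Tpm1 from the minus strand at chr9:67049214-67049463. These windows reach into the gene bounds given below, that of Acta2 with most of its length, so distances hold for the RefSeq start only.

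Acta2: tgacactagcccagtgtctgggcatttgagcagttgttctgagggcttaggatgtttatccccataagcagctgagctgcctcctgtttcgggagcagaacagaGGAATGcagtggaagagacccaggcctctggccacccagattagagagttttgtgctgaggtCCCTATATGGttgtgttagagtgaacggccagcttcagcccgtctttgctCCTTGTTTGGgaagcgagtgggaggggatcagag
Cnn2: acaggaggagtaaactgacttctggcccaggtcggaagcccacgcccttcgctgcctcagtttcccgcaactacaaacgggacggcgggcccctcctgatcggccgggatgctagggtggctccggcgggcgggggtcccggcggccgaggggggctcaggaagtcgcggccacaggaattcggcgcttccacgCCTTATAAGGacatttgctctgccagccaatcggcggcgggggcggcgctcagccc
Tpm1: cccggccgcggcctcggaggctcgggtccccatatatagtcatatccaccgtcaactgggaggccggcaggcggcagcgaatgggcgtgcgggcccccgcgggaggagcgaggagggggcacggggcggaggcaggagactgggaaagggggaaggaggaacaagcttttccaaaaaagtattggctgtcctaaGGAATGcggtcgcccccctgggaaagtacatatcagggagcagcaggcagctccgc

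A CArG-like element here is a CArG box with at most 1 C or G within its central run of A and T, and every exact CArG box also counts as CArG-like. MCAT was searched as GGAATG or CATTCC, and all motifs were searched on both strands. The Acta2 window held 2 CArG-like elements, which began 84 and 34 bases before the start, and 1 MCAT motif 146 bases before it. The Cnn2 window held 1 exact CArG box 56 bases before the start, and the Tpm1 window 1 MCAT motif 56 bases before it. Myl9 had 1 exact CArG box 161 bases before its start and 1 further CArG-like element at 99 bases. The windows of Cnn1, Tpm2 and Myh9 held no match, which says only that these letters do not occur there. Of 32851 promoters of the same length, 1.467% held an exact CArG box, 8.593% a CArG-like element and 12.64% an MCAT motif. Promoters of 7 of the 10 genes were matched, and those of Tagln, Actg2 and Myh11 were not.

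In untreated MSCs the 10 genes covered a wide span of levels, given here in FPKM, which scales fragments to exon length and library size and so allows genes to be set side by side. Acta2 was by far the highest at 1528 ± 93.3 FPKM (mean ± SD, n = 3), and ranked between 22 and 24 among all genes in these libraries. The next was Cnn2, a calponin found also outside muscle, at 297 ± 15.0 FPKM. Tpm2, Myh9, Tpm1 and Myl9 followed at 194 ± 3.10, 190 ± 9.93, 185 ± 5.74 and 168 ± 41.8 FPKM, and neighbours in this order lay within each other's spread. Tagln was at 127 ± 6.00 FPKM, which overlapped with Myl9 alone, and Cnn1, the calponin of differentiated smooth muscle, at 24.7 ± 4.58 FPKM. Actg2, the enteric smooth muscle actin, was low at 2.48 ± 0.398 FPKM. Myh11, the smooth muscle myosin heavy chain, was close to the limit of detection in all groups, with 15 to 22 counts in untreated libraries, 8 to 49 with TGF-β1, 10 to 29 with M-MDSC supernatant and 0 to 15 with G-MDSC supernatant. These counts were below the level required for a test, which was 1 FPKM in at least 3 libraries, and 9 of the 10 genes were tested.

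Markers of mature smooth muscle were present in part. Cnn1 read between 19.6 and 52.1 FPKM over the 12 libraries, and Smtn, the gene of smoothelin, between 19.6 and 27.4 FPKM. In contrast, Myocd, which encodes myocardin, had 0 counts in all 12 libraries, Synpo2 did not exceed 0.0528 FPKM and Lmod1 did not exceed 1.09 FPKM. Of 6 MSC markers, Itgb1, Cd44 and Ly6a, which encodes Sca-1, were above 10 FPKM in every library, whereas Thy1 stayed at or below 5.27 FPKM, Nt5e at or below 1.66 FPKM and Eng at or below 0.968 FPKM. Of the 5 that were tested, 3 were higher and 2 lower in each treated group than in untreated MSCs at an adjusted p-value under 0.05, where over all genes tested 16.1% to 16.4% were higher and 17.9% to 18.9% lower. Of the 3 higher, Nt5e reached the level required for a test only through the treated libraries, so its call cannot be set against these shares. With TGF-β1, M-MDSC and G-MDSC supernatant in this order, the log2 fold changes against untreated were 1.35, 1.68 and 2.04 for Nt5e, 0.66, 0.62 and 0.60 for Itgb1 and 0.48, 0.43 and 0.57 for Cd44. Thy1 was lower in all treated groups than in untreated MSCs, with log2 fold changes of -0.99 with TGF-β1, -1.34 with M-MDSC and -1.50 with G-MDSC supernatant (adjusted p = 0.000679, 8.6e-05 and 3.97e-05, edgeR). Ly6a differed widely between groups, from 241 to 251 FPKM in untreated MSCs, 13.0 to 18.8 FPKM with TGF-β1, 82.6 to 103 FPKM with M-MDSC supernatant and 63.3 to 69.2 FPKM with G-MDSC supernatant.

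**Figure D1:**
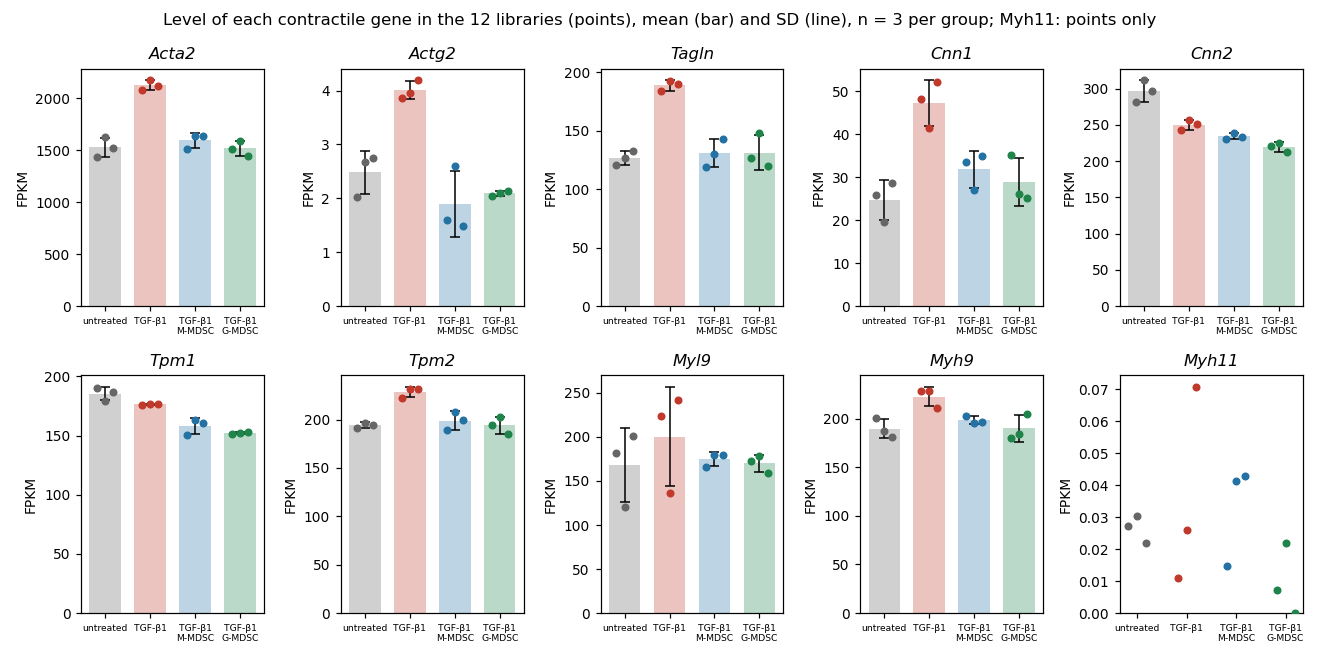
Level of each of the 10 contractile genes in FPKM (vertical axes, each from 0) in the 4 groups, with 1 point per library, bars for the mean and lines for the SD of 3 libraries (points only for Myh11, where a count of 0 is drawn at 0.0001). Acta2, Tagln, Cnn1, Tpm2, Actg2 and Myh9 stand higher with TGF-β1 than in the other groups, while Cnn2 and Tpm1 step down towards the supernatant groups, and Myl9 has 1 low library each in the untreated and TGF-β1 groups.

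TGF-β1 raised 6 of the 9 genes tested and lowered 1, at an adjusted p-value under 0.05 in the quasi-likelihood F test of edgeR with Benjamini-Hochberg adjustment over 12016 genes. Over all of these genes the shares called were 16.1% higher and 17.9% lower. The genes that rose were the actins Acta2 and Actg2, the actin-binding proteins Tagln and Cnn1, the tropomyosin Tpm2 and the nonmuscle myosin heavy chain Myh9. Their median log2 fold change together with the other 3 tested genes was 0.31, against 0.00048 over all genes. With bulk RNA, more RNA per cell and a larger share of cells with that RNA cannot be told apart.

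Acta2 (ENSMUSG00000035783, chromosome 19, 34241090 to 34255590) read 1436, 1623 and 1525 FPKM in untreated replicates 1 to 3 and 2082, 2175 and 2113 FPKM with TGF-β1. The lowest TGF-β1 library lay above the highest untreated one, and the log2 fold change was 0.53 (standard error, SE, 0.053, adjusted p = 1.81e-05). Tagln (ENSMUSG00000032085, chromosome 9, 45929619 to 45936058), which encodes the actin-binding protein SM22, read 120, 127 and 132 FPKM without and 184, 193 and 190 FPKM with TGF-β1. Its groups were equally well separated, with a log2 fold change of 0.63 (SE 0.082, adjusted p = 0.000139). A gene on the opposite strand, Gm48529, shares 62.4% of the exon bases of Tagln, and whether the counting used the strand is not given in the sources used here. Gm48529 had between 857 and 2004 counts per library against 19720 to 34989 for Tagln, and it was also highest with TGF-β1, at 7.42 to 8.66 FPKM against 4.58 to 5.47 FPKM in untreated MSCs, so reads of this pair may not be separated.

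Cnn1 (ENSMUSG00000001349, chromosome 9, 22099216 to 22109630) had the largest fold change of the 9 tested genes. It read 25.9, 19.6 and 28.6 FPKM in untreated MSCs and 48.3, 41.5 and 52.1 FPKM with TGF-β1, a log2 fold change of 0.99 (SE 0.17, adjusted p = 0.00095). Replicate 2 was the lowest of its group in both. Tpm2 (ENSMUSG00000028464, chromosome 4, 43514711 to 43523765) encodes β-tropomyosin and read 191, 197 and 194 FPKM without and 222, 232 and 231 FPKM with TGF-β1. The rise was small but well beyond the spread, with a log2 fold change of 0.29 (SE 0.043, adjusted p = 0.000346). Myh9 (ENSMUSG00000022443, chromosome 15, 77760587 to 77842175) rose by the same 0.29 (SE 0.057, adjusted p = 0.00239), from a range of 181 to 201 FPKM to one of 211 to 229 FPKM. Actg2 (ENSMUSG00000059430, chromosome 6, 83512905 to 83536265) read 2.03, 2.67 and 2.75 FPKM without and 3.87, 3.96 and 4.20 FPKM with TGF-β1. The log2 fold change of Actg2 was 0.75 (SE 0.20, adjusted p = 0.0142), and without untreated replicate 1 it no longer passed (adjusted p = 0.0575, edgeR).

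The paralogues Cnn2 and Tpm1 went another way. Cnn2 (ENSMUSG00000004665, chromosome 10, 79988584 to 79996062) fell from 282, 312 and 297 FPKM to 243, 256 and 251 FPKM, a log2 fold change of -0.19 (SE 0.042, adjusted p = 0.00506). Tpm1 (ENSMUSG00000032366, chromosome 9, 67022590 to 67049267), the gene of α-tropomyosin, read 190, 179 and 187 FPKM without and 176, 176 and 177 FPKM with TGF-β1. All 3 TGF-β1 libraries lay below the untreated ones on the FPKM scale, while the log2 fold change with trimmed-mean scaling was -0.015 with a 95% interval from -0.09 to 0.06 (adjusted p = 0.78, edgeR). Scaling factors were 1.02 to 1.03 in the untreated and 0.978 to 0.983 in the TGF-β1 libraries, and with library totals alone the log2 fold change was -0.076. Accordingly, 6 genes had all TGF-β1 libraries above all untreated ones on the FPKM scale, and 2 had all below, while over all genes tested these shares were 16.6% and 30%.

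Myl9 (ENSMUSG00000067818, chromosome 2, 156775420 to 156781658), the regulatory light chain of smooth muscle myosin, read 181, 121 and 201 FPKM in untreated MSCs and 224, 136 and 241 FPKM with TGF-β1. Replicate 2 was far below the others in both groups, and the log2 fold change of 0.31 had a 95% interval from -0.15 to 0.78 (adjusted p = 0.294, edgeR). Without TGF-β1 replicate 2 the log2 fold change was 0.53 (adjusted p = 0.0397, edgeR). Without replicate 2 in either group, an alternative chosen after the values were seen, it was 0.33 (adjusted p = 0.0146, edgeR).

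**Figure D2:**
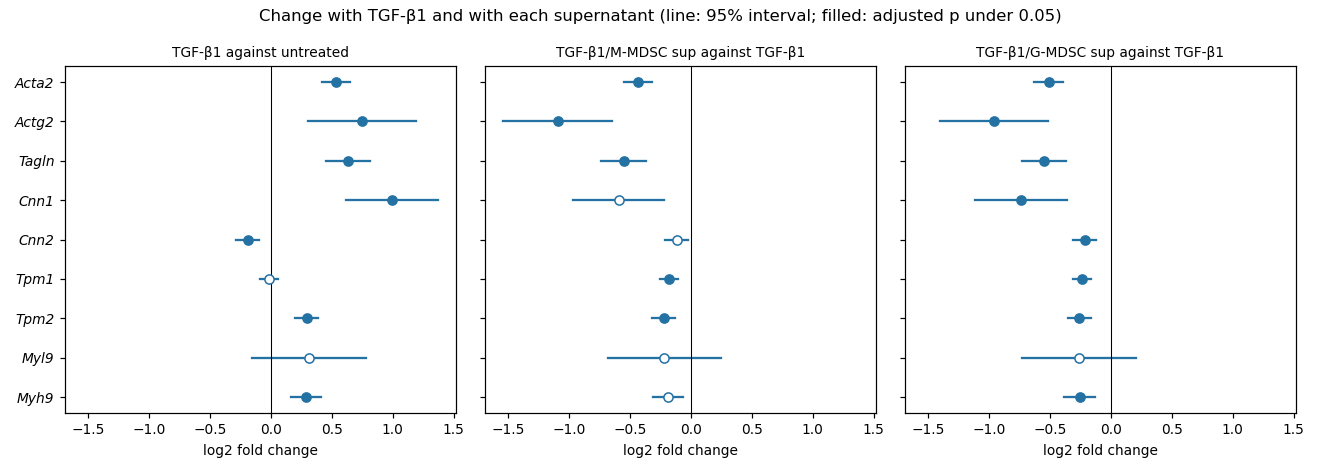
Log2 fold change (horizontal axes) of the 9 tested genes with TGF-β1 against untreated MSCs and with each supernatant against TGF-β1 alone, with lines for the 95% interval and filled points for an adjusted p-value under 0.05. In the left panel 6 filled points lie to the right of 0 and that of Cnn2 to the left, Myl9 and Tpm1 are open, and in the panels of both supernatants all 9 points lie to the left of 0, of which 5 and 8 are filled.

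Under M-MDSC supernatant, 5 of the 9 genes fell relative to TGF-β1 alone, namely Acta2, Tagln, Tpm1, Tpm2 and Actg2. The counts and medians include Acta2, whose fall was the starting point of the question, so only the other genes bear on it. The number that rose was 0 in edgeR, also at an unadjusted p-value under 0.05 and also in DESeq2 and limma. Over all genes tested, 1.95% were lower and 2.83% higher. The median log2 fold change was -0.22 for the 9 genes and -0.013 for all genes. Acta2 read 1508, 1636 and 1639 FPKM, all below the TGF-β1 libraries, with a log2 fold change of -0.44 (SE 0.053, adjusted p = 0.000587, edgeR). Tagln read 119, 130 and 143 FPKM, close to its untreated range, and changed by -0.55 (SE 0.082, adjusted p = 0.00252, edgeR). Actg2 had the largest change at -1.10 (SE 0.20, adjusted p = 0.0103, edgeR), with values of 1.60, 2.61 and 1.49 FPKM that were less even than those of any other tested gene in this group. Tpm2 at 189, 208 and 200 FPKM and Tpm1 at 150, 163 and 161 FPKM changed by -0.22 and -0.18 (adjusted p = 0.0134 and 0.012, edgeR).

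Cnn1 read 33.5, 27.0 and 34.9 FPKM with M-MDSC supernatant, all below the lowest TGF-β1 library, and its log2 fold change of -0.59 (95% interval -0.97 to -0.22) had an adjusted p of 0.0872 in edgeR and 0.00921 in DESeq2. For Myh9 the log2 fold change was -0.19 (adjusted p = 0.105, edgeR) with values of 203, 196 and 196 FPKM. For Cnn2 it was -0.12 (adjusted p = 0.184, edgeR) with values of 230, 239 and 234 FPKM. Counted by ranges alone, 8 of the genes had all M-MDSC supernatant libraries below all TGF-β1 libraries, where the share over all genes tested was 10.6%. The exception among tested genes was Myl9, at 166, 180 and 179 FPKM, because of the low TGF-β1 library. Without TGF-β1 replicate 2 or replicate 3, Tpm1 and Tpm2 no longer passed and the count of lower genes was 3. Fitted to these groups alone, the count was 2, Acta2 and Tagln.

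With G-MDSC supernatant, 8 of the 9 genes fell, all except Myl9, and 0 rose in edgeR, also at an unadjusted p-value under 0.05 and in DESeq2 and limma. Acta2, the starting point of the question, is again included in the counts and medians. The shares over all genes were 2.46% lower and 3.1% higher, and the medians were -0.26 for the 9 genes and -0.014 for all. Acta2 read 1512, 1591 and 1446 FPKM, a log2 fold change of -0.51 (SE 0.053, adjusted p = 0.00017, edgeR). Tagln at 127, 148 and 120 FPKM changed by -0.55 and Cnn1 at 35.3, 26.1 and 25.2 FPKM by -0.74 (adjusted p = 0.00243 and 0.0288, edgeR). Tpm1 was the least variable of the genes in this group, with 151, 152 and 153 FPKM, and changed by -0.24 (SE 0.034, adjusted p = 0.00178, edgeR). Tpm2 changed by -0.26, Cnn2 by -0.21, Myh9 by -0.26 and Actg2 by -0.96 (adjusted p = 0.00448, 0.0132, 0.0245 and 0.0184, edgeR). All G-MDSC supernatant libraries were below all TGF-β1 libraries for 8 genes, a share of 9.55% over all genes tested. Fitted to these groups alone, 5 genes passed. Acta2, Tagln, Tpm1 and Tpm2 passed whichever replicate was left out, whereas the calls of Cnn1, Cnn2, Actg2 and Myh9 each depended on single libraries: for Cnn1 on TGF-β1 replicates 1 and 3 and G-MDSC supernatant replicates 2 and 3, for Cnn2 on TGF-β1 replicates 2 and 3, for Actg2 on TGF-β1 replicates 2 and 3 and all G-MDSC supernatant replicates, and for Myh9 on TGF-β1 and G-MDSC supernatant replicates 1 and 2. The count was lowest, at 5, without TGF-β1 replicate 2 or 3 or G-MDSC supernatant replicate 2.

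The study called genes by fold, over 2 or under 0.5, at an unadjusted p under 0.05. By that rule the count raised by TGF-β1 was 0 (2.6% of all genes). The count lowered by M-MDSC supernatant was 1, Actg2 (0.241% of all genes), and by G-MDSC supernatant 0 (0.275% of all genes). All changes of the more abundant contractile genes were therefore smaller than this rule requires.

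Markers of other cells moved with the supernatants. Of 8 kidney tubule markers, Kap, Umod, Slc34a1 and Aqp2 had 0 counts in every library without supernatant, whereas Kap read 9.20 to 69.2 FPKM with M-MDSC and 37.1 to 51.2 FPKM with G-MDSC supernatant. The summed level of the 8 markers was 4.22 to 4.38 FPKM with TGF-β1, 15.0 to 82.4 FPKM with M-MDSC and 46.3 to 60.3 FPKM with G-MDSC supernatant, and 28.9 to 30.4 FPKM in untreated MSCs, where nearly all of it was Aqp1. Kap, Umod, Slc34a1 and Miox were called higher with either supernatant than with TGF-β1 alone. These 4 reached the level required for a test only through the supernatant libraries, so their calls are not set against all genes. Aqp1, the remaining 1 of the 5 tested kidney markers, was lower with G-MDSC supernatant (log2 fold change -0.40, adjusted p = 0.0328, edgeR). With M-MDSC supernatant its change of -0.33 was not called (adjusted p = 0.091, edgeR). The sum of 10 myeloid markers was 6.20 to 7.21 FPKM in untreated MSCs, 2.27 to 3.18 FPKM with TGF-β1, 4.33 to 6.80 FPKM with M-MDSC and 5.66 to 8.47 FPKM with G-MDSC supernatant. Ly6g and Ly6c2 made up much of the untreated sum. Of 5 tested genes of the list, Lyz2 alone was called higher with either supernatant than with TGF-β1 alone. It reached the level required for a test only through the supernatant libraries, so its call is not set against all genes. Lyz2, the lysozyme gene of myeloid cells, did not exceed 0.0940 FPKM with TGF-β1 and read 0.651 to 2.29 FPKM with M-MDSC and 1.56 to 2.11 FPKM with G-MDSC supernatant, log2 fold changes of 4.6 and 4.87 (adjusted p = 0.0262 and 0.0183, edgeR). S100a9, which encodes a calcium-binding protein of neutrophils and monocytes, had 0 counts in every library without supernatant and read up to 0.980 FPKM with M-MDSC and 3.40 FPKM with G-MDSC supernatant. Ptprc, which marks all leukocytes, stayed at or below 0.0157 FPKM. The part of these transcripts in the contractile gene changes was not tested. Without M-MDSC supernatant replicate 3, which had the highest level of Kap, the same number of 5 genes passed as lower than with TGF-β1 and the log2 fold change of Acta2 was -0.45.

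Whether a gene returned to its untreated level was read from the comparison with untreated MSCs, in which 2 of the 9 genes were lower with either supernatant. These were Cnn2 and Tpm1 in both cases. The count of higher genes with M-MDSC supernatant was 0 in edgeR, 1 at an unadjusted p-value under 0.05 and 1 in DESeq2, where Cnn1 passed, and 0 in limma. With G-MDSC supernatant it was 0 in edgeR, also unadjusted, and 0 in DESeq2 and limma. Of all genes tested, 16.4% passed as higher and 18.9% as lower for M-MDSC supernatant, and 16.4% and 18.4% for G-MDSC supernatant. The 2 lower genes of 9 are thus close to the share of all genes that was lower, and both comparisons share the untreated libraries.

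For Acta2 the 95% interval of the fold against untreated MSCs ran from 0.986 to 1.16 with M-MDSC and from 0.935 to 1.10 with G-MDSC supernatant, and its groups overlapped. Expressed as a share of the TGF-β1 rise in mean FPKM, 88.8% and 102% of it were reversed. The same TGF-β1 libraries enter the rise and its reversal, so a high reading in them raises both. Tpm2 was comparably narrow, with intervals of 0.982 to 1.12 and 0.957 to 1.09 and a reversal of 86.2% and 99.6%. Myh9 gave 0.982 to 1.17 and 0.938 to 1.12, with 73.9% and 99.4% reversed. For Tagln, 93.2% and 92.6% of the rise were reversed, but the intervals were wider, from 0.933 to 1.20 in both cases. Actg2 lay below its untreated mean with both supernatants, at 1.901 ± 0.613 and 2.09 ± 0.0517 FPKM against 2.48 ± 0.398 FPKM, with intervals of 0.577 to 1.07 and 0.635 to 1.17 in fold. Without M-MDSC supernatant replicate 2, Actg2 was called lower than untreated (log2 fold change -0.64, adjusted p = 0.00884, edgeR).

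Cnn1 was the gene of which the least was reversed, 68.4% with M-MDSC and 81.6% with G-MDSC supernatant, among the 6 genes that TGF-β1 raised. Its mean stayed above the untreated one at 31.8 ± 4.22 and 28.8 ± 5.57 FPKM. The log2 fold change against untreated was 0.40 (95% interval 0.03 to 0.77, adjusted p = 0.0916, edgeR) with M-MDSC and 0.26 (95% interval -0.12 to 0.63, adjusted p = 0.282, edgeR) with G-MDSC supernatant. The former passed in DESeq2 (adjusted p = 0.0364) and with a replicate block in edgeR (adjusted p = 0.0262), whereas it did not in limma at either pseudocount (adjusted p = 0.122).

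Cnn2 and Tpm1 ended below their untreated level. Cnn2 went from 297 ± 15.0 FPKM in untreated MSCs over 250.1 ± 6.81 FPKM with TGF-β1 to 234 ± 4.19 FPKM with M-MDSC and 219 ± 6.76 FPKM with G-MDSC supernatant. Its log2 fold changes against untreated were -0.31 and -0.40 (adjusted p = 0.000209 and 2.89e-05, edgeR). Tpm1 changed by -0.19 and -0.25 against untreated (adjusted p = 0.0011 and 0.000178, edgeR), with means of 158 ± 6.82 and 152 ± 0.749 FPKM. For these 2 genes all libraries with either supernatant lay below all untreated libraries, and over all genes the shares were 28% with M-MDSC and 26.8% with G-MDSC supernatant, so the count of such genes was no higher than over all genes. These calls held in each alternative run for the supernatants against untreated MSCs, where the fold rule of the study was not applied.

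**Figure D3:**
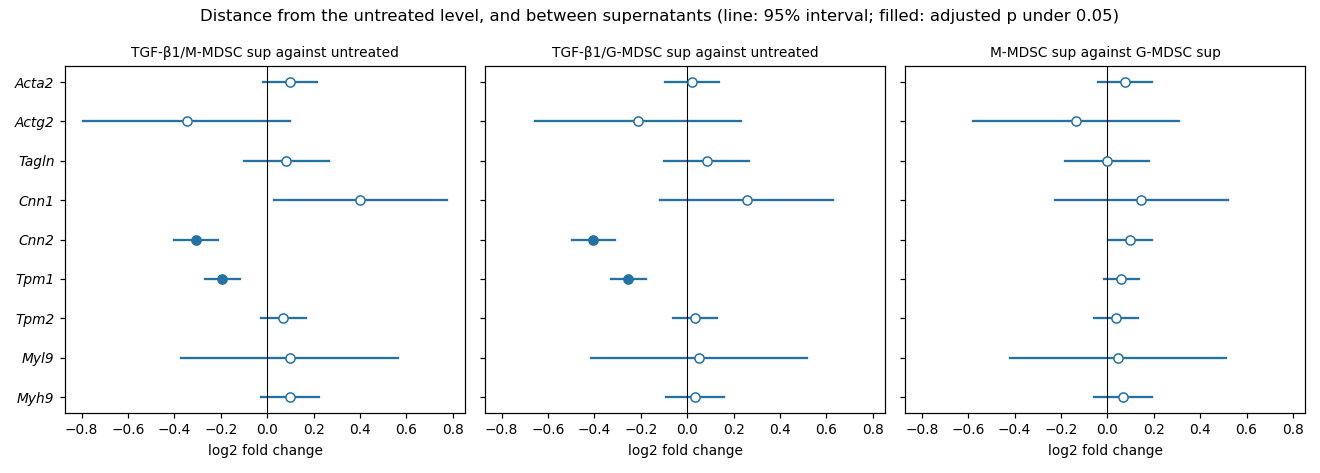
Log2 fold change (horizontal axes) of the 9 tested genes with each supernatant against untreated MSCs, and between both supernatants, with lines for the 95% interval and filled points for an adjusted p-value under 0.05. Cnn2 and Tpm1 are filled and lie to the left of 0 in both comparisons with untreated MSCs, the interval of Cnn1 with M-MDSC supernatant starts just above 0, and no point is filled between the supernatants.

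Compared directly, the supernatants gave 0 genes higher and 0 lower with M-MDSC in edgeR, DESeq2 and limma, and at an unadjusted p-value under 0.05 in edgeR 1 was higher, Cnn2 (log2 fold change 0.098, adjusted p = 0.765). Over all genes tested 0.0999% were higher and 0.025% lower. The M-MDSC libraries lay above all G-MDSC libraries for Cnn2 alone, and for 5.97% of all genes. The log2 fold changes ranged from -0.14 for Actg2 to 0.15 for Cnn1. For Acta2 the interval was -0.04 to 0.19 and for Tagln -0.18 to 0.18. For Myl9, Actg2 and Cnn1 it was far wider, -0.42 to 0.51, -0.58 to 0.31 and -0.23 to 0.52, so sizeable differences between the supernatants could not have been detected for these genes.

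The balance between paralogues shows the different courses on a scale that does not depend on the scaling between libraries. The ratio of Tpm1 to Tpm2 in FPKM was 0.956 ± 0.0443 in untreated MSCs and 0.772 ± 0.0172 with TGF-β1, and it stayed at 0.796 ± 0.0103 with M-MDSC and 0.785 ± 0.0384 with G-MDSC supernatant. The highest ratio in any treated library was 0.826 and the lowest in an untreated one 0.909. The ratio of Cnn1 to Cnn2 went from 0.0837 ± 0.0181 to 0.189 ± 0.0244 and was intermediate with the supernatants, at 0.136 ± 0.0199 and 0.131 ± 0.0243. All supernatant libraries lay above the untreated maximum of 0.0962 in this ratio. The ratio of Acta2 to Tagln moved less, between 10.8 and 12.8 over all libraries, with means of 12.1 ± 0.635, 11.2 ± 0.109, 12.2 ± 0.687 and 11.6 ± 0.735 in untreated, TGF-β1, M-MDSC and G-MDSC supernatant groups. Its TGF-β1 libraries, at 11.1 to 11.3, nevertheless lay below all untreated libraries and all M-MDSC supernatant libraries, whose lowest values were 11.5 and 11.4, and within the range of the G-MDSC supernatant libraries. With 3 libraries a group these ratios were not tested.

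The genes whose log2(FPKM + 1) followed Acta2 most closely over the 12 libraries were Sparc, Tpm2, Tagln, Coro2b, Arhgap22, Dstn and Ccn1, with Pearson's r of 0.977, 0.972, 0.965, 0.959, 0.940, 0.935 and 0.934. Sparc encodes a secreted matricellular protein, and it went from 576 ± 27.2 FPKM to 702 ± 9.27 FPKM with TGF-β1 and to 588 ± 8.31 and 558 ± 32.8 FPKM with M-MDSC and G-MDSC supernatant. Dstn, which encodes the actin-depolymerizing protein destrin, went from 293 ± 11.4 to 363 ± 9.87 FPKM and then to 307 ± 10.9 and 308 ± 10.5 FPKM. Among the contractile genes r was 0.843 for Actg2, 0.758 for Cnn1 and 0.729 for Myh9, and it was 0.320, 0.235 and 0.0627 for Tpm1, Myl9 and Cnn2. These values describe 12 libraries in 4 groups that share scaling and treatment, and no test was made.

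Further genes of the contractile apparatus were taken from 5 lists of 38 genes in all, of which 30 were tested. TGF-β1 raised 15 of them and lowered 3, and their median log2 fold change was 0.16, against 0.00048 for all genes. Against TGF-β1 alone, 1 was lower under M-MDSC and 5 under G-MDSC supernatant in edgeR, where DESeq2 gave 4 and 8. Over all genes tested in edgeR 1.95% and 2.46% were lower. In limma the counts were 1 and 3. At an unadjusted p-value under 0.05 in edgeR, 15 and 16 of the 30 genes were lower, where the shares over all genes were 9.15% and 9.25%. The medians of the log2 fold changes of the 30 genes were -0.13 with M-MDSC and -0.16 with G-MDSC supernatant, against -0.013 and -0.014 for all genes. The number that was higher was 0 with either supernatant in edgeR, also at an unadjusted p-value under 0.05, and 0 in DESeq2 and limma. Against untreated MSCs, 11 were higher and 2 lower with M-MDSC supernatant, and 10 higher and 4 lower with G-MDSC supernatant. The shares over all genes were 16.1% higher and 17.9% lower with TGF-β1, 16.4% and 18.9% for M-MDSC supernatant against untreated MSCs, and 16.4% and 18.4% for G-MDSC supernatant.

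The list of actin anchorage and adhesion held the largest rises. Csrp2, a LIM protein of smooth muscle, was at 9.22 FPKM in untreated MSCs and 25.5 FPKM with TGF-β1, a log2 fold change of 1.53 (adjusted p = 1.65e-05, edgeR), and its log2 fold change against untreated was still 1.28 with M-MDSC and 1.24 with G-MDSC supernatant. The LIM protein genes Pdlim1 and Pdlim7 rose by 1.00 and 0.93 with TGF-β1 on the log2 scale, and against untreated MSCs they differed by 1.01 and 0.89 with M-MDSC and 1.16 and 0.93 with G-MDSC supernatant. Csrp1, related to Csrp2, rose by 0.65 with TGF-β1 and was lower than with TGF-β1 alone with both supernatants (-0.27 and -0.31, adjusted p = 0.00833 and 0.00296, edgeR), yet it was 0.38 and 0.34 above its untreated level. In all, 9 of the 15 tested genes of this list rose with TGF-β1 and 2 fell. Fhl2 was lower with G-MDSC supernatant than with TGF-β1 (-0.21, adjusted p = 0.0277, edgeR). With M-MDSC supernatant its change was -0.076 (adjusted p = 0.469, edgeR).

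Among other thin filament proteins, TGF-β1 raised Smtn, Cnn3 and Tpm4 by 0.51, 0.33 and 0.18 on the log2 scale. With G-MDSC supernatant Cnn3 and Tpm4 fell by 0.22 and 0.15 against TGF-β1 alone. With M-MDSC supernatant they changed by -0.18 and -0.13, which was not called (adjusted p = 0.0647 and 0.0511, edgeR). Smtn, which encodes smoothelin, was at 19.7 FPKM in untreated MSCs, 27.0 FPKM with TGF-β1 and 25.1 and 24.6 FPKM under the M-MDSC and G-MDSC supernatants. In the list of other actins, Actg1 rose by 0.16 (adjusted p = 0.046, edgeR). Of other myosin chains, Myl12b fell by 1.11 with TGF-β1, from 57.1 to 25.4 FPKM. Its close paralogue Myl12a, with which it may share reads, was at 114 and 110.3 FPKM (log2 fold change 0.016, adjusted p = 0.948, edgeR). Myl6, the essential light chain, was lower with G-MDSC supernatant than with TGF-β1 (-0.27, adjusted p = 0.0289, edgeR). With M-MDSC supernatant its change was -0.21 (adjusted p = 0.0936, edgeR).

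In the last list, Srf and Mrtfa, an SRF coactivator, rose by 0.38 and 0.71 with TGF-β1. Against untreated MSCs, Srf differed by 0.29 and 0.21 and Mrtfa by 0.66 and 0.63 with M-MDSC and G-MDSC supernatant, all with an adjusted p-value under 0.05 in edgeR.

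**Figure D4:**
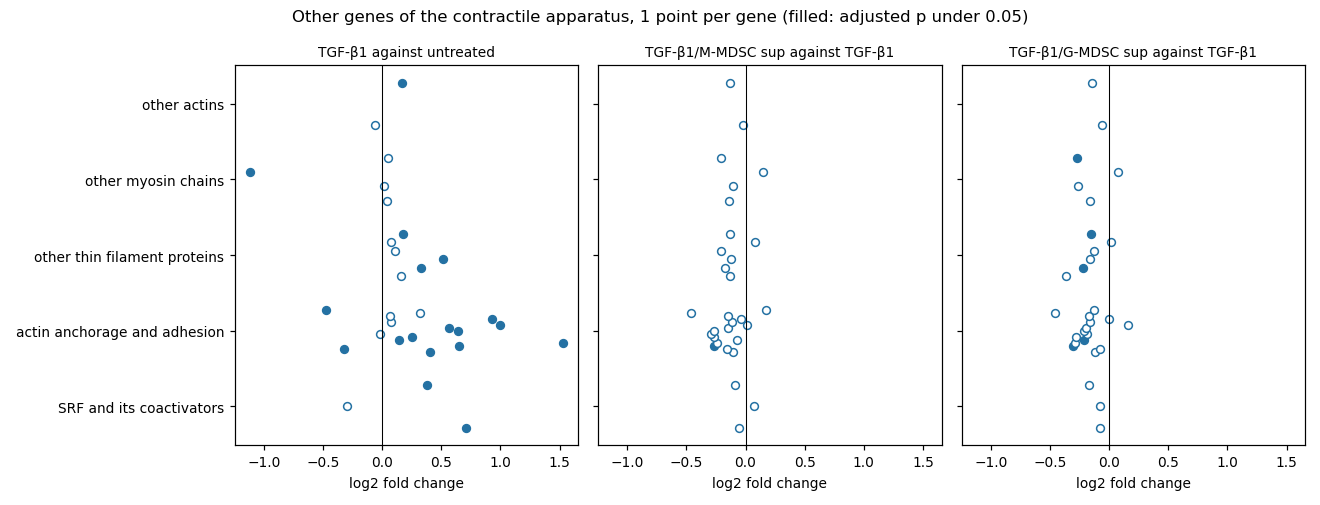
Log2 fold change (horizontal axes) of the 30 tested genes of the contractile apparatus outside the 10, by list, with 1 point per gene and filled points for an adjusted p-value under 0.05. With TGF-β1 15 filled points lie to the right and 3 to the left of 0, while in the panels of M-MDSC and G-MDSC supernatant against TGF-β1 most points are open, with 1 and 5 filled points, all to the left of 0.

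Of 6 pericyte markers 2 were tested, Pdgfrb and Cspg4. The summed level of the 6 was 32.9 to 34.0 FPKM in untreated MSCs, 47.8 to 50.8 FPKM with TGF-β1, 39.6 to 44.5 FPKM with M-MDSC and 37.0 to 38.8 FPKM with G-MDSC supernatant. Most of this sum was Pdgfrb, a gene that MSCs also express, while Rgs5, Kcnj8 and Abcc9 did not exceed 0.107 FPKM and Notch3 did not exceed 0.392 FPKM. Cspg4, which encodes the proteoglycan NG2, had the largest change of the list, from 0.524 to 0.791 FPKM in untreated MSCs to 3.77 to 4.45 FPKM with TGF-β1 (log2 fold change 2.64, adjusted p = 4.8e-07, edgeR). It reached the level required for a test only through the treated libraries, where it was high. Cspg4 was still 2.26 and 2.30 above untreated MSCs on the log2 scale with M-MDSC and G-MDSC supernatant (adjusted p = 1.43e-06 and 1.35e-06, edgeR). It was not called lower than with TGF-β1 alone (adjusted p = 0.239 and 0.286, edgeR). Pdgfrb rose by 0.52 with TGF-β1 (adjusted p = 5.9e-06, edgeR). Unlike Cspg4, it was lower than with TGF-β1 alone under M-MDSC and G-MDSC supernatant (-0.24 and -0.41, adjusted p = 0.0104 and 0.000269, edgeR). The sum of 10 skeletal and cardiac muscle markers was 0.402 to 1.41 FPKM in untreated and 2.98 to 3.52 FPKM in treated MSCs, nearly all of it Tnnt2 in the treated groups, while Myod1 and Myog had 0 counts in all libraries. Other striated muscle genes were low and did not share a course. Tnnt3, a skeletal troponin, had 23 to 69 counts and Acta1, the skeletal actin, 34 to 135 counts over all libraries, and the mean of both was highest with TGF-β1. In untreated libraries Myh6, a cardiac myosin heavy chain, had 0 to 273 counts and Ckm, the muscle creatine kinase, 0 to 47 counts. Both had 0 counts in every treated library. Actc1, the cardiac actin, had 0 to 438 counts in untreated and 0 to 4 counts in TGF-β1 libraries and 0 with the supernatants, and Des, the gene of desmin, had 31 to 281 counts in untreated and no more than 27 in treated libraries. The 5 endothelial markers summed to no more than 0.600 FPKM in any library. The part of these in the contractile gene values was not tested.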

How the data were processed

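Poly(A) RNA of 12 libraries, 3 per group, was sequenced as paired ends by the authors. Per the labels, reads were trimmed with cutadapt 1.9, and HISAT2 2.0.4 and StringTie 1.3.4d were used, with edgeR and DESeq2 listed without versions. The methods name HISAT2 for alignment to GRCm38 and StringTie for assembly. For the check of read quality they name Fastp, and they do not name cutadapt. The tool and strand setting used for counting are not given in the sources used here. The authors deposited raw counts and FPKM per gene, with a count of 0 written as 0.0001 FPKM. Of the nonzero counts up to 12, 44.3% were multiples of 4. 

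Genes of at least 1 FPKM in at least 3 libraries (12016) were fitted on counts with all groups together in edgeR 4.0.16 (R 4.3.3) with trimmed-mean scaling, a quasi-likelihood F test (two-sided) and Benjamini-Hochberg adjustment over these genes. Standard errors were derived from the F statistic. The fit was tested on simulated data. Alternatives were other filters and scalings, DESeq2 1.42.0, limma 3.58.1 on log2(FPKM + 1) or log2(FPKM + 0.1), counts divided by 4, the compared groups alone, a replicate block, the fold rule of the study and leaving out each replicate. Leaving out untreated and TGF-β1 replicate 2 together was added after the values were seen. The 10 genes and the further lists were chosen with earlier results of these data known. Named genes were the 10 genes, of each list the 3 called genes with the largest change in each comparison involving TGF-β1 alone, marker genes, and the 5 genes outside the 10 most correlated with Acta2. Values of some further genes are not reported here. Motifs were searched in RefSeq promoters (GRCm38.p6) with Python 3.11.15. No transcript window of 150 bases of any of the 10 genes occurred in another annotated gene.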

Additional observations from a re-analysis of the deposited data

How the results depend on the processing

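Of 54 log2 fold changes of single genes and 12 counts of called genes, 855 and 265 values from alternative settings kept the direction and side of the threshold or, for counts, stayed within 1.5 times. Of the other values of single genes, 35 no longer passed, 9 newly passed and 19 changed sign, and 14 counts moved by more than 1.5 times. The fold rule of the study gave 0 genes higher with TGF-β1, 1 lower with M-MDSC supernatant and 0 lower with G-MDSC supernatant, by its own construction. With only the groups compared, 2 and 5 genes were lower with M-MDSC and G-MDSC supernatant than with TGF-β1, and without the low Myl9 libraries (untreated and TGF-β1 replicate 2, chosen after seeing the data) 3 and 5, both with fewer libraries. Leaving out single replicates of any group gave 3 to 6 and 5 to 8. In that range 5 to 7 genes were higher with TGF-β1. Without both low Myl9 libraries Myl9 was lower with M-MDSC (-0.42, adjusted p = 0.0165, edgeR) and G-MDSC supernatant (-0.46, adjusted p = 0.00895, edgeR) than with TGF-β1. Against untreated MSCs, 1 gene (Cnn1) was higher with M-MDSC supernatant in DESeq2 and 1 with a replicate block. The replicate numbers did not pair the libraries (correlations of same-numbered libraries from -0.11 to 0.074, with 0 of 18 above 0.1). With the block, Cnn1 was lower with M-MDSC supernatant than with TGF-β1 (adjusted p = 0.0257, edgeR) and Myh9 did not pass with G-MDSC supernatant (adjusted p = 0.0615, edgeR), and it changed no other call. Sign changes concerned differences near 0 that passed no threshold, and their cause was not tested. Between the supernatants, Tagln was 0.0016 without a filter, 0.0035 with filterByExpr and -0.070 to 0.091 with a replicate left out, and Actg2 -0.43 to 0.013 with a replicate left out. With M-MDSC supernatant against untreated MSCs, Myl9 was -0.084 to 0.25 with a replicate left out and -0.084 without both low libraries. With G-MDSC supernatant against untreated MSCs, Acta2 was -0.013, Tpm2 -0.0011 and Myh9 -0.00050 with library totals only, Acta2 was -0.010 with limma at either pseudocount, and Myl9 was -0.13 without both low libraries. With a replicate left out, the ranges in that comparison were -0.025 to 0.077 for Acta2, -0.0090 to 0.14 for Tagln, -0.13 to 0.20 for Myl9 and -0.028 to 0.073 for Myh9. Myh11, at 0 to 49 counts per library, was below the level required for a test in the main fit. The coefficient of variation between libraries of a group reached 32.3% for Actg2, 28.2% for Myl9 and 19.3% for Cnn1. Intervals cover the spread between these libraries alone.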
